A study of Mus musculus with 12 samples.

Results

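The replication-dependent histone genes supply the core histones H2A, H2B, H3 and H4 that package newly made DNA. They were taken from the table of expressed genes by symbol (H2ac, H2bc, H3c or H4c followed by a number, or the older Hist1h to Hist4h names), with no use of the measured values. This gave 31 of 13283 genes: 5 for H2A, 11 for H2B, 7 for H3 and 8 for H4. RefSeq lists 59 genes in the mouse genome whose symbols fit this rule, and 28 of them were not in the table and were not analysed here. Genes of the linker histone H1, and some core histone genes such as H4f16 and H2bu2, carry other symbols and are not among the 31.

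The cells were cytotoxic T lymphocytes (CTL), effector CD8 T cells grown from lymph node or spleen cells of female mice aged 11 to 27 weeks. Cells were activated for 48 h with antibodies to CD3 and CD28, with IL-2 at 20 ng/mL and IL-12 at 2 ng/mL. They were then kept in both cytokines at these doses. Mice of both genotypes were GzmB cre+, so that Cre recombinase was made from the granzyme B promoter once T cells became effectors. WT CTL carried this Cre alone and were sorted as CD8+ cells. FOXO1-GFP KO CTL came from FOXO1-GFP fl/fl mice, in which Cre deletes part of the gene for the transcription factor FOXO1 together with its GFP tag, and were sorted as CD8+ cells without GFP. On day 6 each genotype was given vehicle (DMSO) or 10 µM of the compound IC87114 for 24 h, which blocks p110δ, the catalytic PI3K subunit of lymphocytes, and is written PI3Kdi. The 4 groups, WT, WT+PI3Kdi, FOXO1-GFP KO and FOXO1-GFP KO+PI3Kdi, held 3 libraries each. Replicate numbers pair a vehicle library with a PI3Kdi library of the same genotype.

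Replication-dependent histone genes lie in clusters, lack introns in most cases and are transcribed mainly in S phase. Their mRNA is the exception among animal mRNA in that it usually ends not in a poly(A) tail but just after a short stem-loop, which is bound by the stem-loop binding protein and is cut with the help of the U7 small nuclear RNA. Part of these genes can also make polyadenylated mRNA from a site further downstream, as cells leave the cycle or differentiate. The libraries were made from 300 ng of total RNA with a kit that captures poly(A) tails, so the levels are of captured histone mRNA. They are given in FPKM, reads divided by the exon length in kilobases and by the library size.

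Of the 31 genes, 29 lay on chromosome 13 between 21715763 and 23762386 (GRCm38) and 2, H2bc21 and H4c14, on chromosome 3. The stem-loop was looked for in the GENCODE M21 transcripts as the 16 bases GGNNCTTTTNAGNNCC on the transcribed strand. It was found in 22 of the 31, and in 29 of 13239 other genes of the table (0.219%), among them the linker histone genes H1f2, H1f3 and H1f4. The sequences below cover the 5 forms of the element and were chosen after the values were seen. They show that it was present both in genes that were high in 3 libraries described further on (H4c6, H4c14 and H3c2) and in genes that were not (H4c9, H4c2, H2ac11 and H3c3). Capitals mark the stem-loop.
H4c6: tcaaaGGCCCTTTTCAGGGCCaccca
H4c14: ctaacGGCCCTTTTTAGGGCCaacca
H4c9: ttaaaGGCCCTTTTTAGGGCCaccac
H4c2: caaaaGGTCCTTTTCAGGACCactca
H3c2: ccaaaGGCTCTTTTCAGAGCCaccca
H2ac11: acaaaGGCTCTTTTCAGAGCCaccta
H3c3: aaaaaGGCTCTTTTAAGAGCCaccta
These lie at chr13:23551286-23551311 (H4c6, minus strand), chr3:96262934-96262959 (H4c14, minus), chr13:22040961-22040986 (H4c9, minus), chr13:23757361-23757386 (H4c2, plus), chr13:23752815-23752840 (H3c2, plus), chr13:22042478-22042503 (H2ac11, minus) and chr13:23745042-23745067 (H3c3, minus).

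The commonest of the 5 forms, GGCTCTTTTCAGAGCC, was shared by 10 genes of the H2A, H2B and H3 classes. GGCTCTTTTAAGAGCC was found in 5 genes, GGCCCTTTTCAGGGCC in 4 genes, all of H4, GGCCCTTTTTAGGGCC in H4c9 and H4c14, and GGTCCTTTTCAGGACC in H4c2 alone. Of the 9 genes without a match, 6 had a transcript model that ended at the stop codon (H2ac13, H2ac15, H2bc13, H2bc15, H3c10 and H4c12), and so held no sequence in which to look. The other 3 were H2bc4, H2bc21 and H3c8. In 10 genes the annotated transcript ran on for more than 100 bases beyond the stem-loop, for 1257 bases in H4c14 and 1861 in H2bc6. A poly(A) signal (AATAAA or ATTAAA) stood within the last 60 bases of 6 models, those of H2ac8, H2bc6, H2bc21, H4c8, H4c9 and H4c14.

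Depth, worked out from the steps between low values, was 12.8 to 47.9 M reads in listed genes per library. Reads could be estimated for the 13276 listed genes with a GENCODE M21 model. Those of the other listed genes count below as reads beyond the listed genes. Foxo1, the targeted gene, was at 5.77 to 10.46 FPKM in the 6 WT libraries and 0.58 to 1.75 FPKM in the 6 FOXO1-GFP KO libraries, and the groups did not overlap. All 6 CD8 T cell markers were in the table (Cd8a at 139 to 253 FPKM). Of other cell types, the table held 3 of 4 CD4 T cell markers (summed 4.96 to 8.24 FPKM, Cd4 itself 0.09 to 0.95), 3 of 7 B cell markers (4.31 to 19.5), 3 of 6 myeloid markers (14.83 to 27.04, nearly all Cd68) and 1 of 2 NK cell markers (1.94 to 4.81). The defining genes Foxp3, Ms4a1, Lyz2, Csf1r and Ncr1 were not in the table, nor was any erythroid marker. Libraries WT+PI3Kdi 1, WT+PI3Kdi 2 and FOXO1-GFP KO 1 stood apart from the rest. In these 3 set-apart libraries the reads that the FPKM denominators implied beyond those in listed genes were 1.35, 1.91 and 2.91%, against 0.168 to 0.243% in the other 9. Several RNA without poly(A) tails were also high there. The 5.8S ribosomal RNA n-R5-8s1 was at 166, 235 and 297 FPKM in them and at 1.86 to 15.9 FPKM in the other 9, and the small nuclear RNA Rn7sk at 62.2, 92.0 and 118 FPKM against 1.97 to 7.33. Most RNA of this kind were not high in this way. Of 35 listed further on, 2 were above all other 9 libraries in all 3, Rn7sk among them. The list does not hold n-R5-8s1.

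The histone mRNA were scarce in all 12 libraries. Their summed level was 31.1 to 101.9 FPKM, or 524 to 1491 reads a library, which was 0.00211 to 0.00667% of the reads in listed genes. Over all libraries the mean level of a member ran from 0.235 FPKM (H4c14) to 8.23 FPKM (H2bc11) with a median of 1.61 FPKM, against 5.05 FPKM for the median gene of the table. A histone gene had a median of 19 reads in a library. At that count the counting error alone is 22.9%, and 92 of 372 values (24.7%) rested on fewer than 10 reads. With 3 reads the exact 95% Poisson interval runs from 0.619 to 8.77 reads. These intervals cover counting error only. Of the 31 genes, 28 shared at least 10% of their 75-base windows (the read length) with transcripts of other genes, most of them other histone genes. Reads were counted only where they mapped uniquely, so values of near-identical copies such as H3c10 (93.5% shared) and H2ac13 (89.3%) are uncertain. H4c14 and H2bc21, on chromosome 3, shared none.

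For comparison, the mRNA of the histone variants listed as replication-independent and polyadenylated, which are also used outside S phase, was in sum far more abundant. H3f3b, a gene for the replacement histone H3.3, was at 214 to 302 FPKM, and H2az1, for the variant H2A.Z, at 133 to 163 FPKM. The 10 such variants in the table summed to 622 to 784 FPKM in a library, and the 3 set-apart libraries (628 to 714 FPKM) lay within the range of the other 9. Among the 10, H2ax (28.6 to 66.9 FPKM) also had the stem-loop in its transcripts, so the label polyadenylated may not hold for all of its mRNA.

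**Figure D1:**
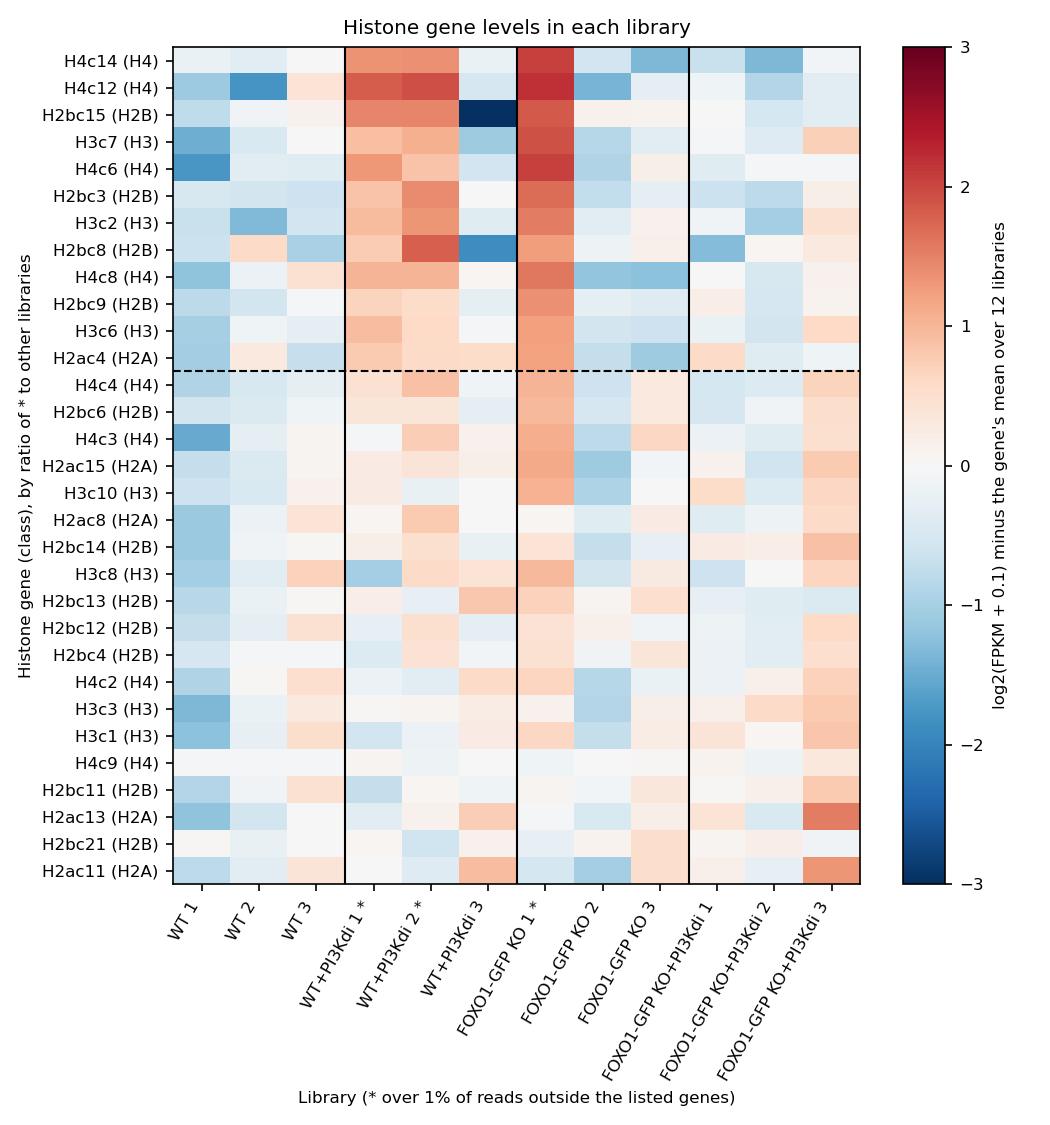
Level of each of the 31 histone genes (rows, class in brackets) in each of the 12 libraries (columns), as log2(FPKM + 0.1) minus the gene's mean over the libraries; red is above and blue below that mean. Asterisks mark the 3 set-apart libraries, rows are ordered by the ratio of those to the other 9, and the 12 genes above the dashed line were higher in all 3 than in any of the other 9.

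The histone genes divided by how they followed the set-apart libraries. In 12 of the 31 (38.7%) the level in each of the 3 exceeded that in each of the other 9 libraries, which held for 35 of all 13283 genes (0.263%). No histone gene was below all other 9 in all 3, where 0.391% of all genes were. The ratio of the mean of the 3 to the mean of the other 9 had a median of 1.71 over the histone genes and 0.981 over all genes, and ran from 0.653 (H2ac11) to 8.13 (H4c14). It was above 1 in 24 of the 31 and above 2 in 13. The 3 libraries were set apart by their reads outside the listed genes and not by the histone genes, and these counts are a description, with no test. Since they fall in 2 groups of the 4, they enter the comparisons between groups below.

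Among H4 genes, 4 of 8 stood above in this way, H4c6, H4c8, H4c12 and H4c14. H4c12, whose model holds only the coding part, was at 0.38, 0.20 and 1.27 FPKM (WT; replicates 1 to 3 in order, here and after), 3.53, 3.79 and 0.62 FPKM (WT+PI3Kdi), 4.55, 0.29 and 0.75 FPKM (FOXO1-GFP KO), and 0.84, 0.46 and 0.73 FPKM (FOXO1-GFP KO+PI3Kdi). The 3 high values are those of the set-apart libraries and rested on 18 to 32 reads, the others on 3 to 11 reads. H4c6 was at 0.61, 1.76 and 1.74 FPKM (WT), 5.77, 4.20 and 1.49 (WT+PI3Kdi), 9.65, 1.17 and 2.58 (FOXO1-GFP KO), and 1.75, 2.18 and 2.17 (FOXO1-GFP KO+PI3Kdi). Again the set-apart libraries were the highest, with 25 to 85 reads against 6 to 33. H4c14 had 14 to 35 reads in the set-apart libraries and 0 to 8 reads in the others. It was listed at 0 in FOXO1-GFP KO 3 and FOXO1-GFP KO+PI3Kdi 2, where a count of 0 allows up to 0.143 and 0.0873 FPKM (3 reads).

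H4c9 behaved otherwise. It had the narrowest range of the 31 relative to its level and was the most abundant H4 gene, at 6.13, 6.10 and 6.17 FPKM (WT), 6.64, 5.69 and 6.34 (WT+PI3Kdi), 5.74, 6.26 and 6.42 (FOXO1-GFP KO), and 6.74, 5.67 and 7.87 (FOXO1-GFP KO+PI3Kdi), on 60 to 213 reads. The set-apart libraries lay within the range of the others (ratio 0.940). H4c9 and H4c14 share the stem-loop letters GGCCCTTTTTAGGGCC, and both models run past the stem-loop and end near a poly(A) signal, yet H4c14 had the highest ratio of the 31 genes and H4c9 did not follow the set-apart libraries. H4c4, second in abundance at 3.39 FPKM on average, was at 1.61, 2.18 and 2.56 FPKM (WT), 4.24, 5.77 and 2.79 (WT+PI3Kdi), 6.40, 1.96 and 3.83 (FOXO1-GFP KO), and 2.12, 2.29 and 4.98 (FOXO1-GFP KO+PI3Kdi). Its set-apart libraries were high but did not clear FOXO1-GFP KO+PI3Kdi 3.

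Of the 11 H2B genes, H2bc3, H2bc8, H2bc9 and H2bc15 stood above in the set-apart libraries. H2bc3 was at 1.17, 1.11 and 1.06 FPKM (WT), 3.10, 4.65 and 1.66 (WT+PI3Kdi), 5.59, 0.96 and 1.38 (FOXO1-GFP KO), and 1.03, 0.93 and 1.90 (FOXO1-GFP KO+PI3Kdi). The 3 WT libraries were close together, and WT+PI3Kdi 3, which is not set apart, exceeded them by less than the other replicates of its group did. H2bc15 was at 0.52, 0.87 and 1.04 FPKM (WT), 2.76, 2.76 and 0 (WT+PI3Kdi), 3.61, 1.04 and 1.02 (FOXO1-GFP KO), and 0.94, 0.62 and 0.74 (FOXO1-GFP KO+PI3Kdi). WT+PI3Kdi was therefore both above and below all WT libraries, and the 0 in WT+PI3Kdi 3 allows up to 0.511 FPKM.

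The most abundant of all, H2bc11, was at 4.21, 7.33 and 10.78 FPKM (WT), 4.76, 8.22 and 7.15 (WT+PI3Kdi), 8.34, 7.38 and 9.91 (FOXO1-GFP KO), and 8.11, 8.81 and 13.71 (FOXO1-GFP KO+PI3Kdi). It did not follow the set-apart libraries (ratio 0.826), and all 4 groups overlapped. H2bc14 came next at 1.44, 2.98 and 3.29 FPKM (WT), 3.61, 4.51 and 2.72 (WT+PI3Kdi), 4.32, 1.92 and 2.67 (FOXO1-GFP KO), and 3.80, 3.71 and 5.95 (FOXO1-GFP KO+PI3Kdi). Every FOXO1-GFP KO+PI3Kdi library was above every WT library in this gene (3.71 FPKM or more against 3.29 or less). These groups were not compared in a fit, and the share of all genes that part in this way was not worked out. H2bc21 (0.38 to 0.95 FPKM) and H2bc4 (1.03 to 2.16 FPKM), which had no stem-loop in their models, had ratios of 0.761 and 1.18.

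Of the H2A genes, H2ac4 alone stood above in the set-apart libraries, at 1.25 to 1.97 FPKM against 0.33 to 1.24 FPKM, a narrow gap. H2ac15, the most abundant, was at 1.11, 1.38 and 2.01 FPKM (WT), 2.27, 2.51 and 2.15 (WT+PI3Kdi), 4.29, 0.85 and 1.78 (FOXO1-GFP KO), and 2.08, 1.21 and 3.32 (FOXO1-GFP KO+PI3Kdi). The 3 WT+PI3Kdi libraries lay above the 3 WT libraries, including replicate 3, which was not set apart. The gap was narrow (2.15 against 2.01 FPKM), and H2ac15 was not called with PI3Kdi in WT. The share of all genes with such a gap was not worked out. H2ac11 was at 0.90, 1.29 and 2.15 FPKM (WT), 1.62, 1.22 and 3.21 (WT+PI3Kdi), 1.10, 0.76 and 2.40 (FOXO1-GFP KO), and 1.82, 1.37 and 4.21 (FOXO1-GFP KO+PI3Kdi). In this gene replicate 3 was the highest in each of the 4 groups, and the set-apart libraries lay at 1.10 to 1.62 FPKM. Replicate 3 was not high in this gene alone. The summed level of all histone genes in replicate 3 was 64.3, 59.1, 61.8 and 88.9 FPKM, groups in the same order. In the other libraries that were not set apart it was 31.1 to 56.7 FPKM. The cause was not tested.

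Of the 7 H3 genes, H3c2, H3c6 and H3c7 stood above in the set-apart libraries. H3c2 was at 0.32, 0.17 and 0.35 FPKM (WT), 1.19, 1.59 and 0.42 (WT+PI3Kdi), 1.86, 0.44 and 0.63 (FOXO1-GFP KO), and 0.53, 0.23 and 0.82 (FOXO1-GFP KO+PI3Kdi). WT+PI3Kdi 3, with 4 reads, was near the WT level. The 2 most abundant H3 genes did not follow. H3c3 was at 1.64, 3.77 and 5.36 FPKM (WT), 4.42, 4.58 and 5.05 (WT+PI3Kdi), 4.79, 2.33 and 4.94 (FOXO1-GFP KO), and 4.82, 6.47 and 7.55 (FOXO1-GFP KO+PI3Kdi) (ratio 0.987). H3c1 was at 0.89, 1.87 and 3.23 FPKM (WT), 1.47, 1.97 and 2.67 (WT+PI3Kdi), 3.49, 1.31 and 2.62 (FOXO1-GFP KO), and 2.93, 2.31 and 4.03 (FOXO1-GFP KO+PI3Kdi) (ratio 0.951).

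**Figure D2:**
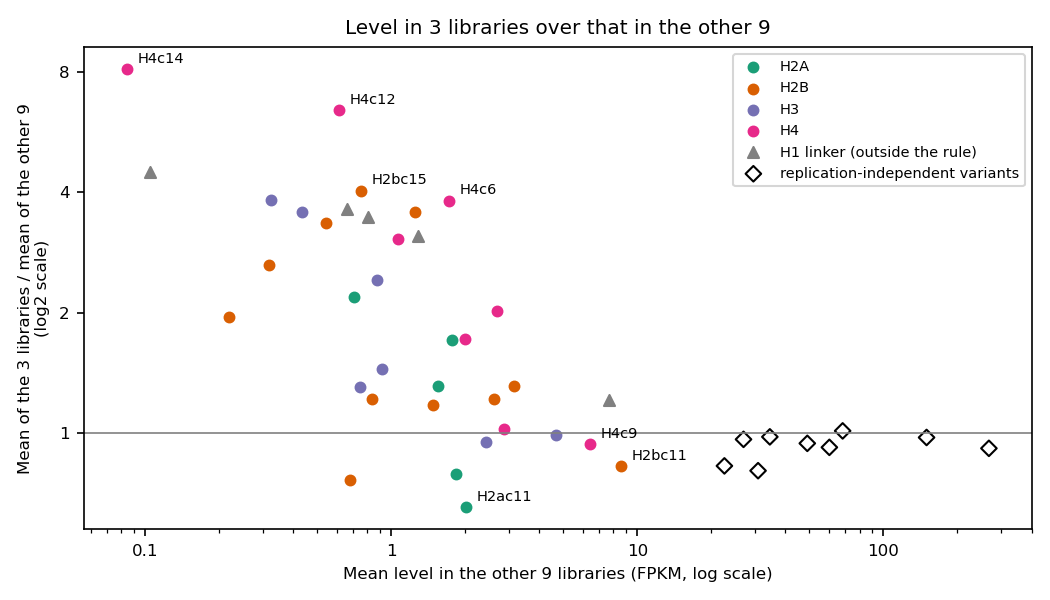
Mean level in the 3 set-apart libraries over that in the other 9 (vertical, log2 scale) against the mean level in those 9 (horizontal, FPKM, log scale), 1 point a gene. Histone genes reach from 0.653 (H2ac11) to 8.13 (H4c14); 9 of the replication-independent variants (diamonds) lie between 0.805 and 1.01, and 4 of the 5 H1 linker histone genes (triangles) above 3.

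No feature of the 3′ end that was looked at fully separated the genes that followed the set-apart libraries from those that did not. The promoter letters given further on were not compared in this way. With a stem-loop in the model, 10 of 22 genes stood above in all 3 and the median ratio was 1.99. Without a match, 2 of 9 did and the median was 1.30. The models of 6 of these 9 ended at the stop codon and could not be searched. Both genes that stood above, H2bc15 and H4c12, were among those 6. All 3 genes whose model ran past the stop codon without a stem-loop stayed out (ratios 0.761 to 1.30). Of the 10 genes with more than 100 bases beyond the stem-loop 5 stood above (median ratio 2.22), and of the 12 with fewer, 5 (1.26). The 5 H1 linker histone genes H1f1 to H1f5, which lie in the same clusters and were chosen after their values were seen, had ratios of 1.21 to 4.50, and H1f3, H1f4 and H1f5 stood above in all 3. Of the core histone genes with a stem-loop outside the rule, H4f16 stood above (ratio 3.27, on 2 to 14 reads). H2aw, H2ax and H2bu2 did not (0.95, 0.942 and 0.906). Of 35 listed RNA of a kind without poly(A) tails (small nucleolar, micro and other small RNA, including 4 host genes of microRNA that are polyadenylated), 2 stood above, Rn7sk and Mir6236, and the median ratio was 0.866. The part of RNA without poly(A) tails in the histone values was not tested.

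Neighbours with divergent starts did not always move together. In 5 places, 2 of the 31 genes were neighbours transcribed away from each other from starts less than 1000 bp apart. H2ac8 and H2bc8 were divided by 175 bp. H2bc8 stood above in the set-apart libraries (1.19, 2.55 and 1.72 FPKM against 0.11 to 1.04 FPKM), while H2ac8 did not (1.64, 2.80 and 1.64 FPKM against 0.68 to 2.41 FPKM). H2ac15 and H2bc15, 295 bp apart, differed in the same way. H2bc9 and H3c7, 659 bp apart, both stood above, and the pairs H2ac11 with H2bc11 and H2ac13 with H2bc13 both stayed out. The window that spans the starts of H2ac8 and H2bc8, from RefSeq (chr13:23571150-23571449, GRCm38.p6, plus strand), is shown since it holds each of the 3 letter groups searched. Capitals mark CCAAT (or ATTGG on this strand), ATTTGCAT and TATAAA.
H2bc8: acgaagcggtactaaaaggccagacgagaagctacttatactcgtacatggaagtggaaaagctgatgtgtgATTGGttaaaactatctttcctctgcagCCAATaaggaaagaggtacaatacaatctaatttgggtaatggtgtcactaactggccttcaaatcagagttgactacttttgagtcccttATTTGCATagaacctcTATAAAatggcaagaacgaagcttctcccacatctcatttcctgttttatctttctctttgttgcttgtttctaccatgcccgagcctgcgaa
RefSeq windows of 300 bases (250 before the start and 50 after) were given for 26 of the 31 genes, 27 windows in all. On either strand, CCAAT was in 22 of the 27 (81.5%) against 37.4% of all 32851 promoters, TATAAA in 13 (48.1%) against 13.6%, and ATTTGCAT, the octamer bound by OCT1, in 7 (25.9%) against 1.74%. These matches are a description of the letters. The 3 searches do not overlap in their letters, and 1 gene, H2bc6, has 2 windows. The windows themselves are not independent. Those of H2ac8 and H2bc8, H2ac11 and H2bc11, H2ac13 and H2bc13, and H2ac15 and H2bc15 overlap, so the same site can count in both genes. The ATTTGCAT and TATAAA of H2ac8 are those marked above for H2bc8.

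**Figure D3:**
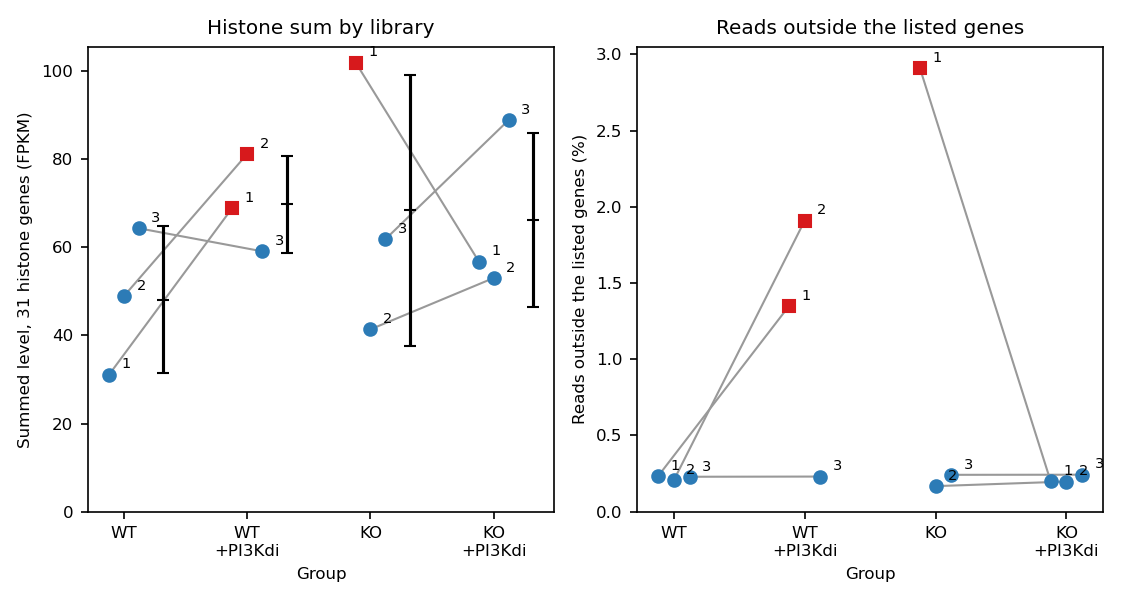
Left, summed level of the 31 histone genes in each library (FPKM, linear axis from 0) by group, with grey lines joining vehicle and PI3Kdi libraries of the same replicate number (the digits) and a bar for the group mean ± SD (n = 3); right, reads outside the listed genes (%) in the same libraries. Red squares are the 3 set-apart libraries and KO stands for FOXO1-GFP KO; the red squares hold 3 of the 4 highest sums.

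The question of whether PI3Kdi changes mRNA levels in WT CTL was put to the histone genes first. Their summed level was 31.1, 48.9 and 64.3 FPKM (WT) and 69.0, 81.2 and 59.1 FPKM (WT+PI3Kdi), or 48.1 ± 16.6 and 69.8 ± 11.1 (SD, n = 3). The groups overlapped, through replicate 3. None of the 31 genes was called by limma (adjusted p below 0.05 over all genes and a fold over 1.5), against 0.0979% of all genes. At an unadjusted p under 0.05 there were 2, H2bc3 and H3c2 (5.14% of all genes), and voom on estimated reads also called none (0.166% of all genes). The fitted log2 fold change was positive in 29 of 31 genes, with a median of 0.57 against -0.038 over all genes, and ran from -0.08 in H2bc11 (SE 0.32) to 1.90 in H4c12 (SE 0.89, limma adjusted p = 0.98). Without the set-apart libraries H4c12 was at 0.31, and at -0.72 with the block as well. The median SE of a histone gene was 0.47, and that of all genes 0.19.

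With the replicate number as a block within genotype, 1 histone gene was called in WT, against 2.57% of all genes. H3c2 rose by a log2 of 1.49 (SE 0.40, limma adjusted p = 0.045), where the fit without the block gave an adjusted p of 0.716. Voom with the block called H3c2 alone as well (1.87, adjusted p = 0.031, 2.68% of all genes called). Without the 3 set-apart libraries its change was 0.49 (SE 0.54, adjusted p = 0.877), or 0.26 with the block (adjusted p = 0.707). The median of the 31 genes was then 0.32, and -0.056 with the block. In that blocked fit H2bc15 was called lower (3.01% of all genes were called), but WT+PI3Kdi was a single library at 0 reads there, and the level was at least 1.59-fold lower than the WT mean, set against 3 reads.

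The same question in FOXO1-GFP KO CTL gave no common direction. The summed level was 101.9, 41.4 and 61.8 FPKM with vehicle and 56.7, 53.0 and 88.9 FPKM with PI3Kdi (68.4 ± 30.8 and 66.2 ± 19.7, SD, n = 3), and the groups overlapped fully. No histone gene was called by limma (0.0452% of all genes were) or by voom (0.0377%). At an unadjusted p under 0.05 there was 1, H2bc13 (5.17% of all genes). The fitted change was positive in 13 genes and negative in 18, with a median of -0.12 against -0.020 over all genes. It ran from -0.97 in H2bc15 (SE 1.04) to 0.75 in H2ac11 (SE 0.51), neither of them called (both adjusted p = 0.933). Without library FOXO1-GFP KO 1 the median turned to 0.21 and 25 of 31 genes were positive.

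With the block, 2 histone genes were called in FOXO1-GFP KO (2.79% of all genes), in opposite directions. H2ac11 rose by 0.75 (SE 0.21, limma adjusted p = 0.048), and H2bc13 fell by 0.77 (SE 0.18, limma adjusted p = 0.024). Voom with the block called H2ac11 (0.83, adjusted p = 0.047) and not H2bc13 (-0.77, adjusted p = 0.076), with 3.36% of all genes called. H2ac11 was higher with PI3Kdi in 3 of 3 pairs of FOXO1-GFP KO, and in 2 of 3 of WT. H2bc13 was at 0.42, 0.71 and 0.85 FPKM (WT), 0.96, 0.69 and 1.53 (WT+PI3Kdi), 1.40, 0.88 and 1.22 (FOXO1-GFP KO), and 0.69, 0.62 and 0.59 (FOXO1-GFP KO+PI3Kdi), on 4 to 13 reads. All 3 FOXO1-GFP KO+PI3Kdi libraries were below all 3 FOXO1-GFP KO libraries, and the share of all genes that did so was not worked out. H2bc13 shared 73.3% of its 75-base windows with other genes. Without the set-apart libraries and with the block, H2ac11 was no longer called (0.76, adjusted p = 0.054), H2bc13 was (-0.68, adjusted p = 0.030), and 7 histone genes were called in all (3.72% of all genes). The 6 that rose were H2ac15, H2bc14, H3c3, H3c10, H4c2 and H4c8, with log2 fold changes of 0.60 (H3c10) to 1.05 (H4c8). In that fit FOXO1-GFP KO is held by replicates 2 and 3 alone.

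**Figure D4:**
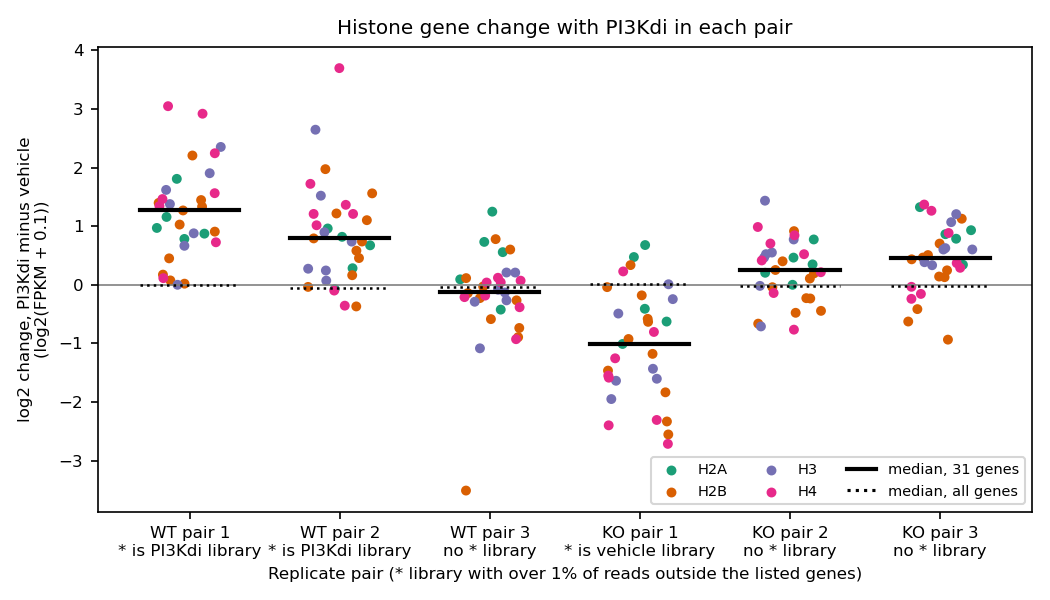
Change of each histone gene with PI3Kdi in each replicate pair (PI3Kdi minus vehicle, log2(FPKM + 0.1)), coloured by class, with the median of the 31 genes (solid) and of all genes (dotted); KO stands for FOXO1-GFP KO and an asterisk for a set-apart library. The medians of the 31 are 1.27 and 0.79 where the PI3Kdi library is set apart, -1.01 where the vehicle library is, and -0.13, 0.25 and 0.46 in the 3 pairs with neither.

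By pair, the direction followed the set-apart libraries. In WT pair 1 the median change with PI3Kdi was 1.27 and 30 of 31 genes were higher, and in WT pair 2 it was 0.79 and 26 were higher. In both, the PI3Kdi library was set apart. In FOXO1-GFP KO pair 1, whose vehicle library was set apart, the median was -1.01 and 26 genes were lower. In the 3 pairs without a set-apart library the medians were -0.13 (WT pair 3, 13 genes higher), 0.25 (FOXO1-GFP KO pair 2, 20 higher) and 0.46 (FOXO1-GFP KO pair 3, 25 higher). The medians over all genes lay between -0.063 and 0.0065 in the 6 pairs. Across the 3 pairs without a set-apart library, 5 genes were higher with PI3Kdi each time (H2ac4, H2ac11, H2ac15, H4c2 and H4c4) and H2bc15 was lower each time. In these pairs 42.6, 46.3 and 44.6% of all genes were higher. The share of all genes that moved 1 way in all 3 was not worked out, so no response is read from these counts. No gene was higher or lower in all 6 pairs. The effect of the set-apart libraries and that of PI3Kdi cannot be told apart in the pairs that hold them.

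Between genotypes, no histone gene was called with vehicle (0.331% of all genes were) or with PI3Kdi (1.45%), by limma or by voom (0.437 and 1.39%), and the block changed neither count (0.233 and 1.18%). At an unadjusted p under 0.05 there were 2 with vehicle, H2bc13 and H3c2 (6.51% of all genes), and 0 with PI3Kdi (10.2%). With vehicle, 28 of 31 genes were positive (FOXO1-GFP KO minus WT), against 47.3% of all genes. Their median was 0.43, against -0.012 over all genes. The changes ran from -0.09 in H2ac11 (SE 0.51) to 1.31 in H3c2 (SE 0.55, limma adjusted p = 0.680). Among genes of at least 1 FPKM in either group H4c6 had the largest value, 1.26 (SE 0.68, adjusted p = 0.906). With PI3Kdi the median was -0.17, against 0.0061 over all genes, and 18 genes were negative. H2bc11 had the largest positive value, 0.59 (SE 0.32, limma adjusted p = 0.608), and H4c12 the largest negative one among genes of at least 1 FPKM, -1.51 (SE 0.89, adjusted p = 0.653). Without the set-apart libraries H4c12 was at 0.076, and at 1.10 with the block as well. Without the set-apart libraries the medians were 0.082 and 0.076. H2bc15 alone was then called, with PI3Kdi (0.0602% of all genes, and 0.61% with the block), against the single WT+PI3Kdi library at 0 reads, which was at least 1.5-fold lower than the FOXO1-GFP KO+PI3Kdi mean. Of the 3 B cell markers in the table, Ighm was called lower in FOXO1-GFP KO with vehicle and with PI3Kdi, Igkc with PI3Kdi alone, and Cd79b in neither (limma adjusted p = 0.597 and 0.734).

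The difference of the 2 PI3Kdi responses (FOXO1-GFP KO minus WT) was negative in 23 of 31 genes, with a median of -0.79 against 0.021 over all genes. No histone gene was called by limma, with or without the block, or by voom, and of all genes none (0%) was called, or 0.0226% with the block. At an unadjusted p under 0.05 there were 3, H2bc3, H2bc13 and H3c2 (1.51% of all genes). Values ran from -2.50 in H4c12 (SE 1.26) to 0.32 in H2ac11 (SE 0.72). Both turned without the set-apart libraries, to 0.092 in H4c12 (0.99 with the block) and -0.53 in H2ac11 (0.097 with the block). With all 12 libraries and the block the smallest adjusted p was 0.085, in H2bc13 (-1.36, SE 0.26). The median was -0.23 without library FOXO1-GFP KO 1 and 0.042 without all 3 set-apart libraries. Without them and with the block, H2bc13 (-1.52, adjusted p = 0.045) and H2bc15 were called (0.61% of all genes) and the median was 0.42. WT+PI3Kdi is a single library in these fits, at 0 reads for H2bc15, and its spread is assumed to be that of the other groups.

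**Figure D5:**
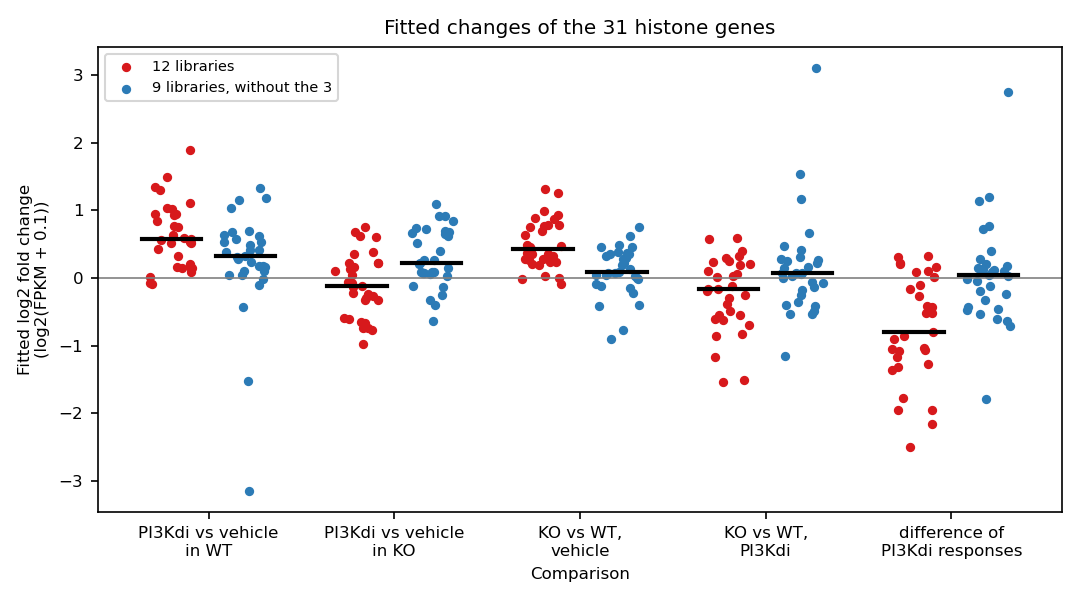
Fitted log2 fold change of each of the 31 histone genes in the 5 comparisons, from all 12 libraries (red) and from the 9 that are not set apart (blue), with medians as black bars; KO stands for FOXO1-GFP KO. Medians of 0.57, -0.12, 0.43, -0.17 and -0.79 with 12 libraries are 0.32, 0.21, 0.082, 0.076 and 0.042 with 9.

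The other genes of histone supply and of DNA synthesis did not follow the set-apart libraries. No gene of 4 lists was called in any of the 5 comparisons, with or without the block, by limma or by voom. These were 10 replication-independent histone variants, 16 factors of histone mRNA synthesis, 3′ end processing and decay, 11 histone chaperones and 31 S phase genes. At an unadjusted p under 0.05 without the block there were 7 of 50, 2 of 80, 0 of 55 and 6 of 155 pairs of gene and comparison, where 1.51 to 10.2% of all genes passed per comparison. With the block there were 16 of 50, 12 of 80, 2 of 55 and 16 of 155, where 23.7, 29.5, 5.09, 9 and 10.8% of all genes passed in the 5 comparisons. Some variants then had a limma adjusted p under 0.05 with a fold under 1.5, among them H1f0, for a linker histone of resting cells, with PI3Kdi in WT (-0.40, adjusted p = 0.00082), and H2az2, for a form of H2A.Z, with PI3Kdi in FOXO1-GFP KO (0.54, adjusted p = 0.0067). Slbp, which encodes the stem-loop binding protein, was at 24.7 to 32.7 FPKM in all libraries. The S phase genes, among them Pcna, the sliding clamp of DNA polymerase, and Rrm2, a subunit of ribonucleotide reductase, summed to 1399 to 1500 FPKM in the set-apart libraries and to 1343 to 1532 FPKM in the other 9. Their median log2 fold change lay between -0.034 and 0.059 in the 4 comparisons of 2 groups. In bulk RNA, fewer cells making an mRNA and less of it in each cell cannot be told apart.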

How the data were processed

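RNA sequencing was done on 12 CTL libraries. The authors aligned 75 bp paired reads with STAR (2.7.1a) to GRCm38.p6 (Ensembl 98), counted unique reads per gene, filtered low genes with edgeR and deposited FPKM values scaled by their methods with TMM. The table held 0 further columns of values per sample. Estimated reads and depth were recovered here from the FPKM spacing of genes up to 400 bp; in held-out genes of 400 to 800 bp, 98.5 to 100% of values came out whole within 0.1 reads. The recovered denominators were 1.002 to 1.03 times the reads in listed genes. Whether a TMM factor is part of this excess cannot be told from the values. It is described here as reads outside the listed genes.

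Tests used limma 3.58.1 in R 4.3.3 on log2(FPKM + 0.1), with 4 group means, a mean-variance trend and Benjamini-Hochberg adjustment over 13283 genes. Fold changes on that scale understate changes of low genes. Deviations from group means correlated at 0.596 to 0.838 in WT pairs and 0.594 to 0.780 in FOXO1-GFP KO pairs, so replicate number was used as a block within genotype (consensus correlation 0.757). Labels call the samples biological replicates. Settings varied were the pseudocount, a level filter, the block, TPM rescaling, voom on estimated reads, the libraries fitted and median scaling. Fits were also run on simulated reads, which held no set-apart libraries and changed only genes of at least 1 FPKM. That run therefore does not bear on lower genes or on set-apart libraries.

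Members, gene lists and tests were chosen with earlier results of these data known. Values in every library are given for the 2 most abundant genes per class, genes called with or without the block, and the largest and smallest change per comparison among genes of at least 1 FPKM. Others were named after their values were seen. Gene models and transcripts came from GENCODE M21 (GRCm38).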

Additional observations from a re-analysis of the deposited data

How the results depend on the processing

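Histone reads were few, so differences below the spread of these libraries were not detectable at this depth. The number of histone genes called stayed at 0 in all 5 comparisons under the other pseudocounts, the level filter, TPM rescaling, voom, a block shared by all groups, fits of the compared groups alone, median scaling and every fit without 1 library. With the replicate block within genotype the PI3Kdi comparison gave 1 (WT) and 2 (FOXO1-GFP KO), or 1 and 1 with voom and that block; the block changed no other call. Without the 3 set-apart libraries (added after seeing the data) it was 1 between genotypes with PI3Kdi; with the block as well it was 1 in WT, 7 in FOXO1-GFP KO, 1 between genotypes with PI3Kdi and 2 for the difference (H2bc13 and H2bc15), with medians of -0.056 in WT, 0.40 between genotypes with PI3Kdi and 0.42 for the difference. The median for the difference was 0.042 without the block. Leaving out 1 library, medians ranged from 0.37 to 0.85 in WT, -0.42 to 0.21 in FOXO1-GFP KO, 0.08 to 0.77 and -0.47 to -0.00085 between genotypes without and with PI3Kdi, and -1.15 to -0.23 for the difference, and no called count changed (0 to 0).

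Of the genes named for a comparison, some signs turned, and the cause was not tested. H2ac11 ranged from -0.53 to 0.24 between genotypes and -0.13 to 0.76 for the difference, and H2bc11 from -0.44 to 0.23 with PI3Kdi in WT, when 1 library was left out. Without the 3 libraries H2ac11 was 0.0038 and -0.53, H2bc11 0.043, and H4c12 0.076 between genotypes with PI3Kdi and 0.092 for the difference; with the block H4c12 was 1.10, -0.72 in WT and 0.99.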
